A study of Mus musculus with 24 samples.

Results

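The entorhinal cortex 1 day after silencing was compared with vehicle in 12 of the 24 RNA sequencing libraries of the series. The comparison took every library whose treatment label was 1DPI (6 libraries, 3 females and 3 males) and every library labelled Veh (6 libraries, 4 females and 2 males), over the 16767 of 55417 genes in the count table that had enough reads to be tested. All animals, vehicle included, had the genotype tg/tg and came from crossing the Nop-tTA driver (Line S) with the TRE-GlyCl-YFP responder (Line 9531), and were adults of 2 to 4 months. The tissue was subdissected entorhinal cortex. Vehicle animals therefore carry the channel too, and the 2 groups differ in the treatment that activates it. No animal without the channel was included, so effects of the agent itself and of the opened channel cannot be told apart. The labels give neither the activating agent nor the time at which vehicle tissue was taken, and each transgene is represented by 1 line.

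GlyCl is an engineered glycine receptor chloride channel. Once opened, it lets chloride pass and holds the neurons that carry it below firing threshold. In this cross it is driven only where the tTA transactivator is made, which in published use of the Nop (neuropsin, now Klk8) promoter is chiefly a subset of superficial entorhinal neurons, so most cells of a dissected piece do not carry it. Neuronal firing is read out in RNA in 2 waves. Calcium entry activates CREB and the ERK kinases with their nuclear partners SRF and Elk1, which switch on immediate early transcription factors such as Fos, Egr1 and Egr3. These factors and CREB then act on late effector genes for synapses, secreted factors and channels, for example Homer1, Nptx2 and Bdnf.

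Total counts did not differ detectably between the groups, at 19.5 ± 2.06 M reads (SD, n = 6) in vehicle and 20.02 ± 2.30 M at day 1 (exact permutation test, two-sided, p = 0.710). The transgene marker EYFP was at 112 ± 19.2 CPM (reads scaled to a fixed library total) in vehicle and 110 ± 20.6 CPM at day 1, with overlapping groups (log2 fold change -0.07 ± 0.13). Reln and Calb1, markers of superficial entorhinal neurons, stood at 130 ± 8.36 and 156 ± 14.2 CPM in vehicle with log2 fold changes of 0.02 ± 0.07 and 0.02 ± 0.05. All 10 superficial entorhinal markers were measured, and their summed level was 1091 to 1169 CPM in vehicle and 1095 to 1235 CPM at day 1. Klk8, the gene whose promoter gives the driver its name, was at 1.99 ± 0.54 and 1.55 ± 0.319 CPM. Of 13 markers of blood-borne leukocytes, 1 had enough reads to be tested. The choroid plexus marker Ttr was above 100 CPM in Vehicle 5, Day1 2 and Day1 4 (891 to 1158 CPM) and at 8.28 to 25.9 CPM in the other 9 libraries. All 15 choroid plexus markers had a log2 fold change above 0, with a median of 0.61 and summed levels of 146 to 1937 CPM in vehicle and 184 to 1647 CPM at day 1, and none was called by edgeR (0 also at an unadjusted p under 0.05). In bulk tissue, fewer cells of a type and less RNA per cell cannot be told apart.

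At day 1, 15 genes differed from vehicle (0.0895% of genes tested; edgeR quasi-likelihood test, Benjamini-Hochberg adjusted p under 0.05), of which 13 were lower (0.0775%) and 2 higher (0.0119%). The genes that fell were Egr3, Dio2, Ephb3, Rnd1, Bcor, Tmem198, Kcnh3, Synpo, Inka2, Mast3, Gm10419, Kcnip2 and Cacnb3, and those that rose were Elk1 and C4b. By the fitted fold change the falls ran from 10.9% (Cacnb3) to 40.1% (Egr3). Without adjustment, 1192 genes had a p under 0.05 (7.11%), 703 lower (4.19%) and 489 higher (2.92%). The median log2 fold change of all genes was 0.0011 and 50.6% of genes were above 0. Normalization factors did not overlap between the groups (0.984 to 0.997 in vehicle, 1.00 to 1.01 at day 1). With library totals alone and no such factors, 5 genes were lower and 2 higher.

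**Figure D1:**
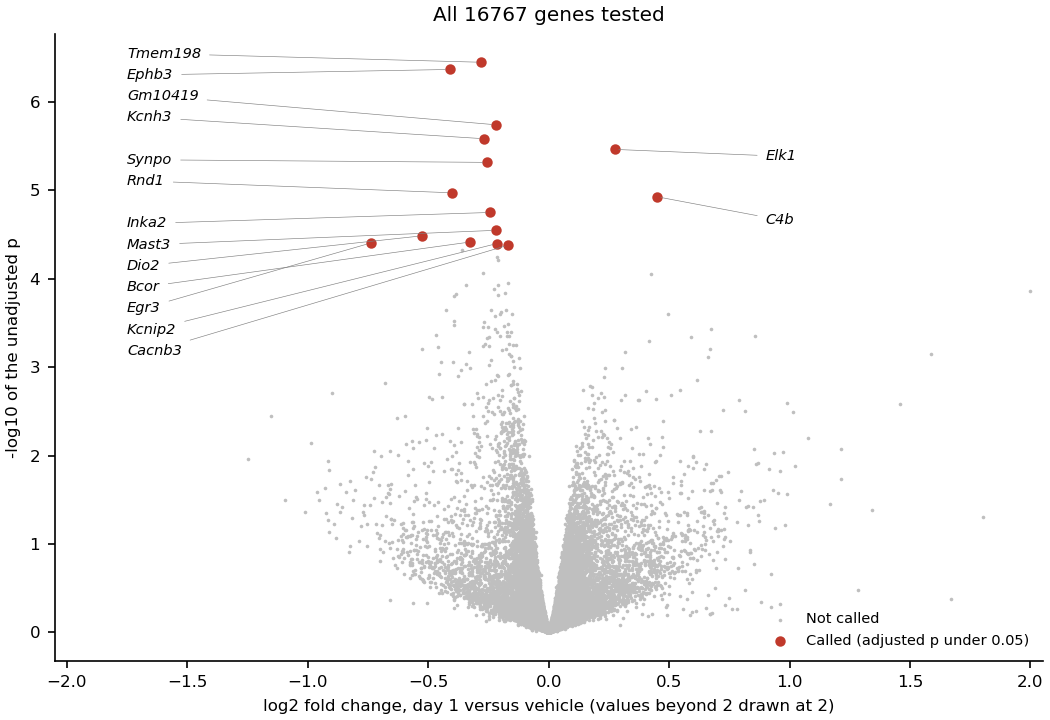
Each point is 1 of the 16767 genes, with its log2 fold change at day 1 versus vehicle on the x axis and the -log10 of its unadjusted p on the y axis. Red points are the 15 genes called; 13 of them lie to the left of 0 and Elk1 and C4b to the right.

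Egr3, a zinc-finger transcription factor of the immediate early class, had the largest fall. The vehicle libraries, in order of replicate, held 188, 230, 196, 275, 194 and 304 CPM, and the day 1 libraries 117, 139, 137, 128, 150 and 175 CPM. Every day 1 library lay below every vehicle library, and the vehicle group was the more spread of the 2. The fall was 0.74 ± 0.14 on the log2 scale (SE of the fit; adjusted p = 0.0465). A second transcriptional regulator, the BCL6 corepressor Bcor, fell by 0.33 ± 0.07 (adjusted p = 0.0465). Its highest day 1 library, at 40.4 CPM, was above its lowest vehicle library, at 39.3 CPM, so the groups touched.

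Dio2 encodes the deiodinase that turns thyroxine into active thyroid hormone inside the brain. It measured 61.8, 69.8, 53.7, 79, 62.3 and 79.3 CPM in vehicle and 43.9, 51.8, 45.7, 47.4, 49.4 and 46.9 CPM at day 1. The day 1 libraries were close together (SD 2.79 CPM against 10.2 in vehicle) and all below vehicle. It fell by 0.52 ± 0.10 (adjusted p = 0.0465). Of 16 measured genes of thyroid hormone activation, transport and response, Dio2 was the 1 that passed, the list median was -0.08 and 4 members were above 0. Tmem198, a multipass membrane protein linked to Wnt signalling, gave the smallest p of all genes. Its vehicle libraries ranged from 85.9 to 98 CPM (median 90.0) and its day 1 libraries from 70.2 to 81.3 CPM (median 75.8), without overlap. The fall was 0.28 ± 0.04 (adjusted p = 0.0036).

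The promoters of these 2 genes are shown because they hold the palindromic cyclic AMP response element that CREB binds. The 250 bases before the start site were read from RefSeq (GRCm38.p6), where 10 of the 15 called genes had a window. The capitals mark TGACGTCA, which reads the same on both strands.
Dio2: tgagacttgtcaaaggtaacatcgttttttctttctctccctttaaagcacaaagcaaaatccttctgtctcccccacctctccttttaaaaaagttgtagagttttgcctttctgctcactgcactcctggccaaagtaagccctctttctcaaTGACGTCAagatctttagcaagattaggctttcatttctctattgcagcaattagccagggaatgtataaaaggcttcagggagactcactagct
Tmem198: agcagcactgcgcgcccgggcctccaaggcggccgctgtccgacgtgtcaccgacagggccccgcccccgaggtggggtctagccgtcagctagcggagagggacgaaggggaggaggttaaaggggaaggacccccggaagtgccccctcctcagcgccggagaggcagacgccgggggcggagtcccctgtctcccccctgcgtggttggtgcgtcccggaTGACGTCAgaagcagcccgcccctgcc
The Dio2 window is chr12:90739039-90739288 on the minus strand, and its element starts 95 bases before the start site. The Tmem198 window is chr1:75479282-75479531 on the plus strand, and its element starts 27 bases before the start site, with 1 further copy in the first 50 transcribed bases. Across all 32851 windows of this length, 1.55% held TGACGTCA, and 1.77% of the 27025 genes had such a window. The AP-1 letters TGACTCA, the EGR letters GCGTGGGCG, the E-box CACGTG and the CArG box of SRF were each searched on both strands. None is contained in another. They were found in 5.16%, 0.622%, 6.86% and 1.62% of genes and in 0 of the 10 called genes with a window. These matches describe letters in a window, not bound sites.

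**Figure D2:**
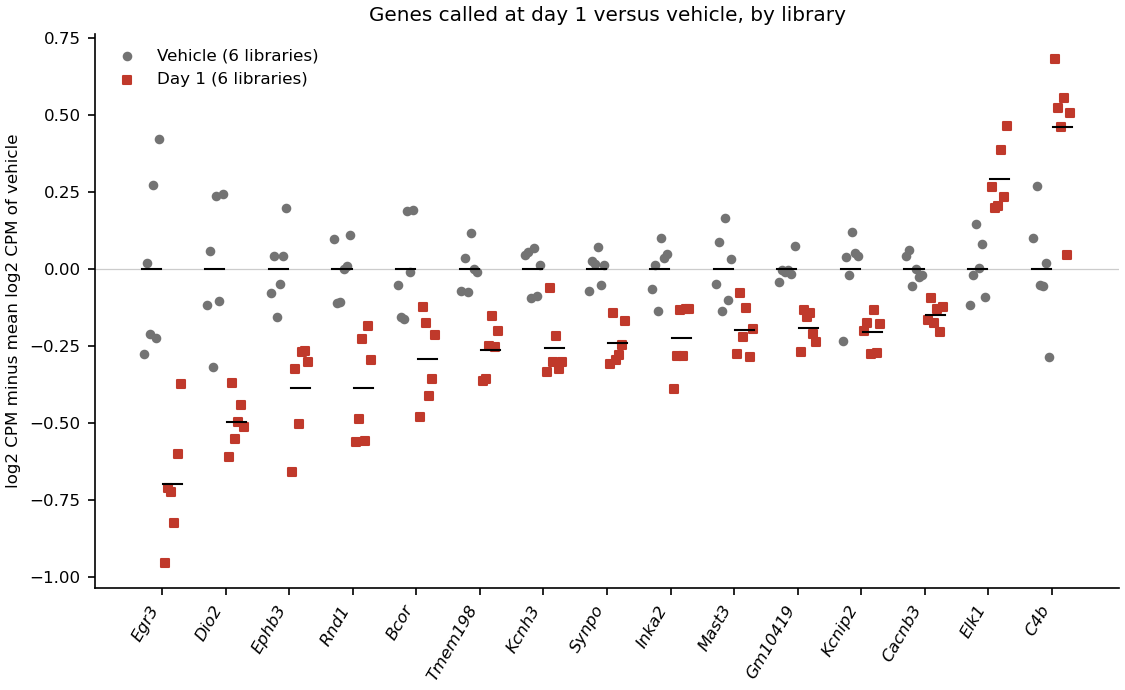
For each of the 15 called genes, the y axis gives every library's log2 CPM minus the mean log2 CPM of the vehicle libraries (grey circles, vehicle, n = 6; red squares, day 1, n = 6; bars, group means). In 8 of the 13 lower genes and in Elk1 the 2 groups do not overlap.

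Ephb3, a receptor tyrosine kinase for ephrin-B ligands that acts in spine formation, held 29.0 to 37.0 CPM in vehicle (median 32.2) and 20.4 to 26.8 CPM at day 1 (median 26). Day1 1 was the lowest library, and no day 1 library reached the vehicle range. It fell by 0.41 ± 0.07 (adjusted p = 0.0036). Rnd1, a small GTPase that loosens the actin cytoskeleton, went from 25 ± 1.65 to 19.2 ± 2.26 CPM (SD, n = 6 per group) and fell by 0.40 ± 0.08 (adjusted p = 0.0248). Synpo, the actin-binding protein of the spine apparatus, went from 261 to 288 CPM in vehicle to 221 to 248 CPM at day 1. Neither Rnd1 nor Synpo had a day 1 library inside the vehicle range. The fall of Synpo was 0.26 ± 0.05 (adjusted p = 0.0135). Inka2, an inhibitor of the actin-regulating kinase PAK4, fell by 0.24 ± 0.05 (adjusted p = 0.0332), with 1 or more libraries in the range of the other group.

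Falls were also measured for 3 ion channel genes. Kcnh3, a voltage-gated potassium channel of forebrain neurons, held 217, 219, 197, 221, 198 and 212 CPM in vehicle and 167, 202, 171, 181, 168 and 171 CPM at day 1. Day1 2 was the 1 day 1 library inside the vehicle range. Kcnh3 fell by 0.27 ± 0.05 (adjusted p = 0.0109). Kcnip2, an accessory subunit of A-type potassium channels, fell by 0.21 ± 0.05, from 140 ± 11.4 to 121 ± 4.8 CPM (adjusted p = 0.0465). The groups overlapped, with Vehicle 1 at 119 CPM, below the day 1 mean. Cacnb3, an accessory subunit of voltage-gated calcium channels, fell by 0.17 ± 0.04, from 292 to 317 CPM in vehicle to 264 to 285 CPM at day 1, with no overlap (adjusted p = 0.0465). Mast3, a neuronal serine/threonine kinase, fell by 0.22 ± 0.05 (adjusted p = 0.0465). Its lowest vehicle library (Vehicle 3, 315 CPM) was under its highest day 1 library (Day1 2, 328 CPM). Gm10419, a predicted gene with no assigned role, fell by 0.22 ± 0.04 (adjusted p = 0.0101). It overlaps Gm42517 on the opposite strand, which stood at -0.21 ± 0.05 (adjusted p = 0.0556), and reads of the 2 cannot be told apart here. The same limit holds for Tmem198 with Obsl1 (-0.03 ± 0.07), Kcnh3 with Mcrs1 (-0.06 ± 0.05) and Dio2 with Gm26512 (-0.31 ± 0.22).

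Elk1 and C4b moved the other way. Elk1, the ETS factor that ERK phosphorylates at SRF-bound promoters, held 62.3, 66.8, 74.8, 67.7, 71.5 and 63.4 CPM in vehicle and 81.4, 77.6, 77.9, 88.4, 79.5 and 93.3 CPM at day 1. The lowest day 1 library was above the highest vehicle library. Elk1 rose by 0.27 ± 0.05 (adjusted p = 0.0116). C4b, the complement component that tags surfaces for clearance, held 15.1 to 22.2 CPM in vehicle. At day 1 it held 29.5, 26.4, 25.3, 27, 18.9 and 26.1 CPM, so 5 libraries were above vehicle and Day1 5 was inside its range. It rose by 0.45 ± 0.09 (adjusted p = 0.0248). Its near-identical neighbour C4a, looked up after the values of C4b were seen, was at 0.24 ± 0.22, and reads may be split between the copies. Of the 15 called genes, 9 had ranges that did not overlap (8 lower, 1 higher). Among all genes 0.632% did not overlap; 0.268% had all day 1 libraries below vehicle and 0.364% had all above.

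How far the 15 calls rest on single libraries differed by gene. Tmem198 and Ephb3 were called in each of the 24 fits that left out 1 library (largest adjusted p = 0.0294 and 0.0454, edgeR). The 24 include the 6 day 2 and 6 day 3 libraries, which are in the fit but not in the comparison. Without Vehicle 6 these 2 were the only genes called, and Gm10419 (adjusted p = 0.0550) lost its call there only. Kcnh3 lost its call without Vehicle 6 or Day1 1 (largest adjusted p = 0.0709) and Elk1 without Vehicle 6 or Day1 4 (0.101). Synpo and Rnd1 lost theirs without Vehicle 4, Vehicle 6, Day1 1 or Day1 4 (0.0766 and 0.156). C4b lost its call without Vehicle 4, 5 or 6 or Day1 1, 3, 4 or 6, and Inka2 without Vehicle 2, 4, 5 or 6 or Day1 1, 2 or 4 (0.156 for each). The 6 genes at an adjusted p of 0.0465 were the least stable. Mast3 was called in 13 of the 24 fits, Dio2 in 11, Bcor in 10, Egr3 in 8, Cacnb3 in 7 and Kcnip2 in 6. Each lost its call without Vehicle 4, Vehicle 6, Day1 1, Day1 3, Day1 4 or Day1 5, among others. All 6 genes lost their calls in most of the fits that left out a vehicle or day 1 library. The size of the fall of Egr3 over these fits was -0.81 to -0.64 and that of Dio2 -0.58 to -0.46. Without the 3 Ttr-rich libraries of these groups and the 5 of days 2 and 3, 18 genes were called, 8 of them among the 15; Rnd1, C4b, Inka2, Dio2, Egr3, Kcnip2 and Cacnb3 were not. No gene of the 15 changed sign in any of 16 alternatives or 24 leave-one-out fits, which for the 9 with separate ranges follows from those ranges. For the others too, some of these fits could not show a change. The 1.2-fold threshold reuses the main fold changes, and leaving out a day 2 or day 3 library hardly touches them.

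The library codes in the labels were sorted into number series by their first digits, and the labels do not say what these stand for. Both groups were present in 4 series (79, 94, 97 and 98). Within each of these, 14 of the 15 genes differed in the direction of the whole comparison. These libraries also chose the genes, and for the 9 with separate ranges the direction largely follows from those ranges. Series 79 set the male Vehicle 1 against the female Day1 1. Series 97 and 98 set Vehicle 5 against Day1 5 and Vehicle 6 against Day1 6. In series 94 the vehicle libraries were female and the day 1 libraries male. Sex and group cannot be told apart in series 79 and 94. Egr3 differed by -0.71, -0.83, -0.39 and -0.81 (log2 CPM, day 1 minus vehicle), and Elk1 by 0.36, 0.20, 0.14 and 0.55. The exception was Kcnip2, at 0.0052 in series 79. C4b was at 0.01 in series 97, which holds Day1 5. With the series as a factor in the fit, 36 genes were called, 13 of the 15 among them; Egr3 and Dio2 lost their calls there.

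The immediate early genes did not move as a block. Of 20 measured, Egr3 fell and 19 did not pass. At an unadjusted p under 0.05, 6 were lower and 0 higher, against 4.19% and 2.92% of all genes. The same shares apply to the lists that follow. The list median was -0.25 against 0.0011 for all genes, and 5 members were above 0. Fosl2 (-0.51 ± 0.17), Nr4a3 (-0.59 ± 0.20), Klf10 (-0.50 ± 0.20), Klf4 (-0.28 ± 0.12) and Fosb (-0.56 ± 0.24) were the other members at an unadjusted p under 0.05 (adjusted p from 0.412 to 0.631, edgeR). Jun, Btg2, Dusp1, Ier2 and Ppp1r15a lay above 0.

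The most rapidly induced members varied widely inside both groups. Fos held 56.1, 26.8, 36.8, 17.8, 20.4 and 52.6 CPM in vehicle and 7.07, 17.5, 12.2, 37.5, 62.0 and 50.4 CPM at day 1. Arc held 263, 119, 238, 108, 137 and 448 CPM in vehicle and 31.3, 119, 79.5, 242, 311 and 276 CPM at day 1. Day1 1, 2 and 3 had the lowest day 1 values of both genes, while Day1 4, 5 and 6 lay inside the vehicle range or above it. For Arc, Day1 2 was inside the vehicle range as well, and for Fos it was just under it. Npas4, an activity-dependent factor, averaged 24.9 ± 19.5 CPM in vehicle and 25 ± 14.8 CPM at day 1 (log2 fold change SE 0.64). Egr1 ran from 262 to 530 CPM in vehicle and from 114 to 376 CPM at day 1 (-0.52 ± 0.27, adjusted p = 0.727, edgeR). In Day1 4, 5 and 6 Egr3 was nevertheless at 128, 150 and 175 CPM, under the lowest vehicle library.

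**Figure D3:**
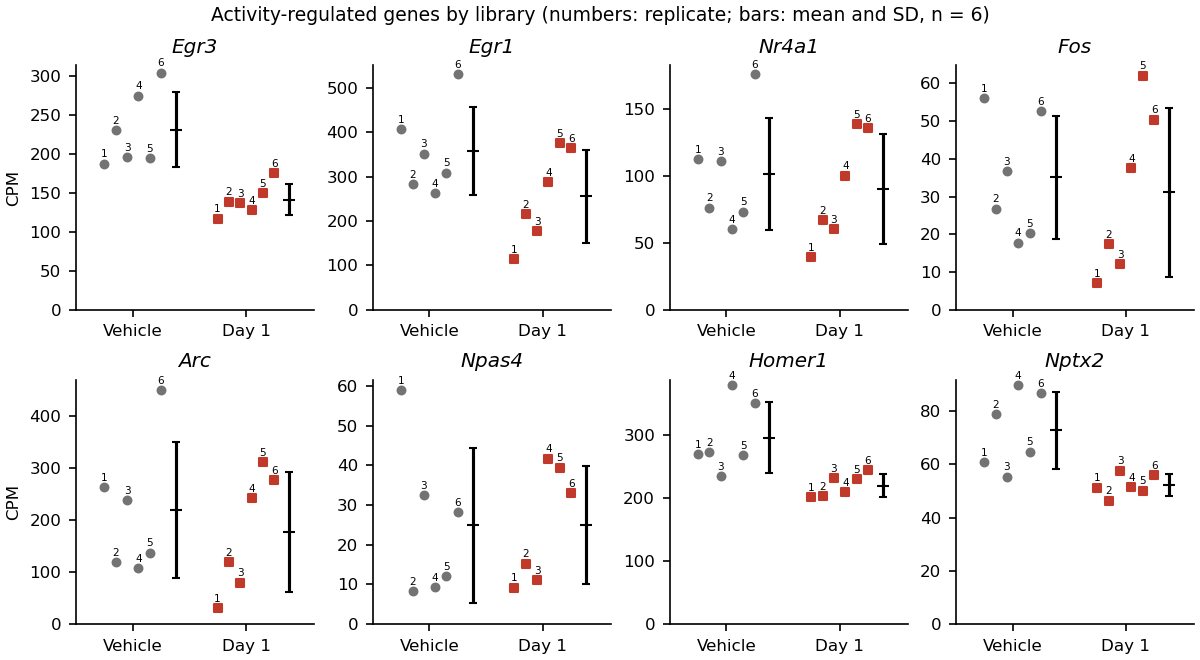
CPM of 8 activity-regulated genes in each library, with replicate numbers beside the points and mean ± SD (n = 6) at the right of each group. Egr3 is the 1 panel without overlap between the groups; the day 1 values of Fos, Arc and Npas4 are spread widely and overlap vehicle, while Homer1 and Nptx2 form tight day 1 groups at the lower edge of vehicle.

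Within the Egr and Nab family, which pairs the Egr activators with the corepressors they induce, 5 of 6 genes were below 0 and the median was -0.49. Nab2, the Egr-induced corepressor, went from 21.9 to 35.6 CPM in vehicle to 16.6 to 25.9 CPM at day 1 (-0.45 ± 0.12, unadjusted p = 0.000882, adjusted p = 0.182 by edgeR). Egr2 and Egr4 stood at -0.58 ± 0.48 and -0.47 ± 0.25. Nab1, a paralog not known for activity regulation, was at 0.02 ± 0.06. Egr3 is a member of this list and of the immediate early list, so the 2 medians share it and Egr1, Egr2 and Egr4.

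Of 20 late effector genes of neuronal activity 0 passed by edgeR; 9 were lower and 0 higher at an unadjusted p under 0.05, 1 was above 0, and the median was -0.17. Homer1, whose short form uncouples postsynaptic receptors, held 234 to 379 CPM in vehicle (SD 55.8) and 201 to 244 CPM at day 1 (SD 17.7). Nptx2, a secreted pentraxin that clusters AMPA receptors, held 55.4 to 89.7 CPM and 46.4 to 57.7 CPM. In both genes the day 1 libraries lay close together at or under the bottom of the vehicle range, and the groups overlapped by their edges. Their log2 fold changes were -0.46 ± 0.12 and -0.50 ± 0.14 (adjusted p = 0.220 and 0.280). Others at an unadjusted p under 0.05 were the neuritin gene Nrn1 (-0.15 ± 0.05), the secreted peptide precursor Vgf (-0.19 ± 0.06), the clock-linked repressor Bhlhe40 (-0.41 ± 0.14), the neurotrophin Bdnf (-0.22 ± 0.08), Mapk4, Pcsk1 and Gadd45b. Scg2 was the 1 member above 0.

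Among 20 measured genes of the SRF and ERK pathway and its feedback, Elk1 rose and 19 did not pass. Here 7 were lower at an unadjusted p under 0.05, and the median was -0.10. They were the ERK-induced ETS factors Etv4 (-0.39 ± 0.10, adjusted p = 0.132, edgeR) and Etv5 (-0.19 ± 0.06), Srf itself (-0.14 ± 0.04), the ERK phosphatases Dusp4 (-0.32 ± 0.10) and Dusp14 (-0.20 ± 0.06), and the Ras inhibitors Spred1 (-0.12 ± 0.05) and Spred2 (-0.17 ± 0.05). Elk1 was thus the 1 member of this list with an unadjusted p under 0.05 and a value above 0. Of 27 genes of CREB and calcium signalling 0 passed (9 lower and 3 higher at an unadjusted p under 0.05, median -0.05), led by the calcium-activated kinase Camkk2 (-0.17 ± 0.04, adjusted p = 0.134).

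Of 29 spine scaffold genes Synpo fell, 28 did not pass, 2 were above 0 and 7 were lower at an unadjusted p under 0.05 (median -0.06). Grasp, a scaffold that tethers group 1 metabotropic glutamate receptors, missed the threshold narrowly at -0.36 ± 0.07 (adjusted p = 0.0502, edgeR), and its day 1 libraries (58.0 to 64.3 CPM) all lay under vehicle (69.8 to 89.1 CPM). Dlgap3, Baiap2 and Homer2 stood at -0.15 each. Of 24 presynaptic release genes 0 passed, 6 were lower and 0 higher at an unadjusted p under 0.05 (median -0.06, as for the spine scaffold genes), among them the membrane fusion genes Stx1a (-0.13 ± 0.05) and Vamp2 (-0.08 ± 0.03). Of 22 glutamate receptor genes 0 passed, 14 were above 0 and the median was 0.03. The NMDA receptor subunit Grin2c (-0.25 ± 0.07, adjusted p = 0.191) was the 1 at an unadjusted p under 0.05 that was lower, against 3 higher, Grm7, Grik4 and Grm5. Over all genes, 4.19% were lower and 2.92% higher at that level. Of 19 GABA receptor and inhibitory synapse genes 0 passed, and the extrasynaptic subunit Gabrd was the lowest (-0.23 ± 0.07).

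**Figure D4:**
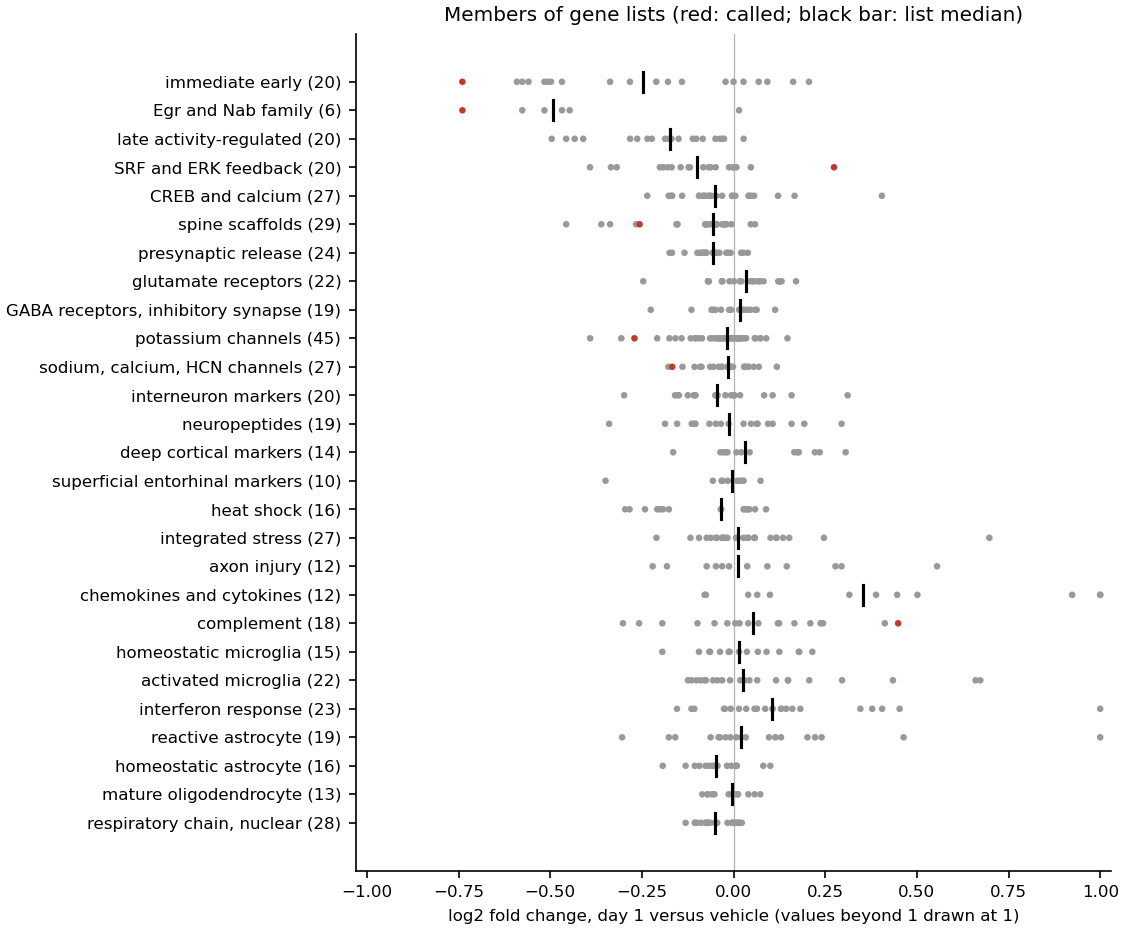
Each point is a measured gene, placed by its log2 fold change at day 1 versus vehicle, in 27 gene lists with the number measured in brackets; red points are called genes and black bars list medians. The Egr and Nab, immediate early and late activity-regulated lists have the lowest medians (-0.49, -0.25 and -0.17) and chemokines and cytokines the highest (0.35).

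Beyond Kcnh3 and Cacnb3, the channel genes were centred near 0. Of 45 potassium channel genes, Kcnh3 fell and 44 did not pass, with 9 lower and 1 higher at an unadjusted p under 0.05. Kcns1, a modulatory subunit of Kv2 channels, had a larger value than Kcnh3 but did not pass (-0.39 ± 0.09, adjusted p = 0.0902, edgeR), and Kcnh4 stood at -0.31 ± 0.11. Kcna4, of A-type currents, was the 1 higher (0.15 ± 0.06). Of 27 sodium, calcium and HCN channel genes Cacnb3 fell and 26 did not pass. Cacnb1, another accessory subunit of calcium channels, stood at -0.14 ± 0.05. Of 21 Eph and ephrin genes Ephb3 fell and 20 did not pass. The ligand genes Efnb1 and Efnb2 lay on opposite sides (-0.25 ± 0.08 and 0.16 ± 0.05), as did the receptors Epha10 (-0.13 ± 0.05) and Epha5 (0.15 ± 0.05). Of 20 chloride transport genes and 6 glycine receptor and transgene entries 0 passed by edgeR, and 0 had an unadjusted p under 0.05.

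Glial and immune genes showed few changes at this time. Of 18 complement genes C4b rose and 17 did not pass. Of 12 measured chemokines and cytokines 0 passed; 3 were higher and 1 lower at an unadjusted p under 0.05 (median 0.35). That median rests on genes with few reads: it was 0.10 with a filter of 1 CPM in 6 libraries, 0.07 with only the 2 groups fitted, and 0.21 and 0.23 without Vehicle 3 and Vehicle 5. Ccl3, a microglial chemokine, had 0, 2, 1, 1, 2 and 0 reads in the vehicle libraries and 17, 6, 4, 3, 1 and 9 at day 1 (adjusted p = 0.0902, edgeR). Counts of this size give an imprecise fold, and Day1 1 held the most. Cxcl10 had 19 of its reads in Day1 5 and at most 4 in any other day 1 library. Among microglial genes, 0 of 15 homeostatic and 0 of 22 activated genes passed. At an unadjusted p under 0.05, 2 and 4 were higher and 0 lower, against 2.92% higher and 4.19% lower of all genes. Examples were the Toll-like receptor relative Cd180 (0.67 ± 0.23) and the lysosomal protein Cd68 (0.30 ± 0.12). Aif1, a general microglial marker, was at -0.04 ± 0.11. Gfap, the astrocyte intermediate filament, held 159 to 223 CPM in vehicle and 200 to 256 CPM at day 1 (0.24 ± 0.08, adjusted p = 0.448), with Day1 1 highest. Of 23 interferon response genes 0 passed and 17 were above 0 (median 0.11). The homeostatic astrocyte, oligodendrocyte and endothelial lists had medians of -0.05 to 0.05 and 0 called.

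Injury and stress genes gave 0 calls by edgeR in each list. Over all genes, 4.19% were lower and 2.92% higher at an unadjusted p under 0.05. Of 12 axon injury genes 1 was higher and 1 lower at an unadjusted p under 0.05, and Atf3, the main injury-induced factor, stood at 0.51 ± 0.217 CPM in vehicle and 0.75 ± 0.295 CPM at day 1. Of 27 genes of the integrated stress response 2 were higher at an unadjusted p under 0.05 (Trib3 and Cars). Of 16 heat shock genes, 4 had an unadjusted p under 0.05 and values below 0, the chaperones Dnajb1 (-0.21 ± 0.06), Dnajb5 (-0.30 ± 0.10), Hspa5 (-0.19 ± 0.07) and Hspa1b (-0.24 ± 0.11). Of 21 genes of the p53 and cell death list, Cdkn1a, a cell cycle inhibitor that is also a glucocorticoid target, was lowest (-0.68 ± 0.18, adjusted p = 0.250). Fkbp5, another glucocorticoid target, stood at -0.30 ± 0.11.

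Just outside the threshold, the 10 falls with the smallest p were Grasp, Gm42517, Sema4a, Cdk2ap1, Gnb5, Nefm, Pdgfb, Fbxo9, Dgkz and Cbfa2t3 (adjusted p from 0.0502 to 0.0902, edgeR). They include the neurofilament gene Nefm (-0.21 ± 0.05), the growth factor Pdgfb (-0.34 ± 0.08), the G protein subunit Gnb5 (-0.17 ± 0.04) and the diacylglycerol kinase Dgkz (-0.18 ± 0.04). The 10 rises were farther from it (adjusted p from 0.0749 to 0.197). They were Itih3, an extracellular matrix protein (0.42 ± 0.09), the glycolytic enzyme gene Hk2 (0.50 ± 0.12), Gm12592, the lysosomal transporter Slc15a3, Nfe2l3, Zfp174, Adamts2, Ddx4, the deep-layer marker Ccn2 (0.31 ± 0.08) and Sh2d3c. Hk2, Gm12592, Slc15a3, Nfe2l3 and Ddx4 averaged under 5 CPM in both groups.

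A group by sex term tested whether the day 1 difference was unequal in females and males. It was called for 0 genes by edgeR and for 0 by DESeq2, and 528 genes (3.15%) had an unadjusted p under 0.05. Elk1 was among these, with the larger rise in males (difference of log2 fold changes 0.27 ± 0.10, unadjusted p = 0.00718, edgeR). Vehicle held 2 males. With 3 or fewer libraries of a sex in all but 1 group, females alone gave 1 call and males alone 0.

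The later days were read for the same 15 genes, with the caution that vehicle or day 1 libraries are shared between these contrasts and the one that picked the genes. Egr3 averaged 195 ± 27.6 CPM at day 2 and 201 ± 29.3 at day 3, against 231 ± 48.4 in vehicle and 141 ± 19.98 at day 1. Ephb3 was at 29.8 ± 2.45 and 32.4 ± 1.38 CPM, against 32.4 ± 2.80 and 24.8 ± 2.62. Both genes thus stood nearer to vehicle on the later days than at day 1. Against vehicle, all 15 genes kept their day 1 sign at day 2 and at day 3. Of the 15, 14 had an unadjusted p under 0.05 at day 2 and 4 at day 3 (edgeR). The vehicle libraries that helped choose the genes set part of this. Against vehicle, the 1 gene of the 15 called at day 2 (background 0.0656%) and at day 3 (0.62%) was C4b, at 0.59 ± 0.09 and 0.93 ± 0.08. Its level was 18.5 ± 2.36 CPM in vehicle, 25.5 ± 3.53 at day 1, 28 ± 2.66 at day 2 and 35.6 ± 1.95 at day 3.

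Day 1 was also tested directly against the later days. Against day 2, 0 of the 15 were called (background 0.0119%; 2 of all genes by edgeR), and 12 of the 15 had an unadjusted p under 0.05 (background 4.06%). Against day 3, 6 of the 15 were called (background 0.68%). Ephb3 (0.39 ± 0.07, adjusted p = 0.00109), Kcnh3 (0.21 ± 0.05), Synpo (0.20 ± 0.05) and Bcor (0.29 ± 0.07) were higher at day 3 than at day 1, Elk1 was lower (-0.23 ± 0.05) and C4b higher (0.48 ± 0.08). Since the low or high day 1 values chose these genes, part of such a movement is set by that choice. Egr3 and Dio2 did not pass against day 3 (0.51 ± 0.14 and 0.37 ± 0.10, adjusted p = 0.127 and 0.119). Leaving out Day1 5 or Day1 6 lowered the day 3 versus day 1 count over all genes from 114 to 74, and leaving out Day3 1 or Day3 6 to 63 or 55.

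**Figure D5:**
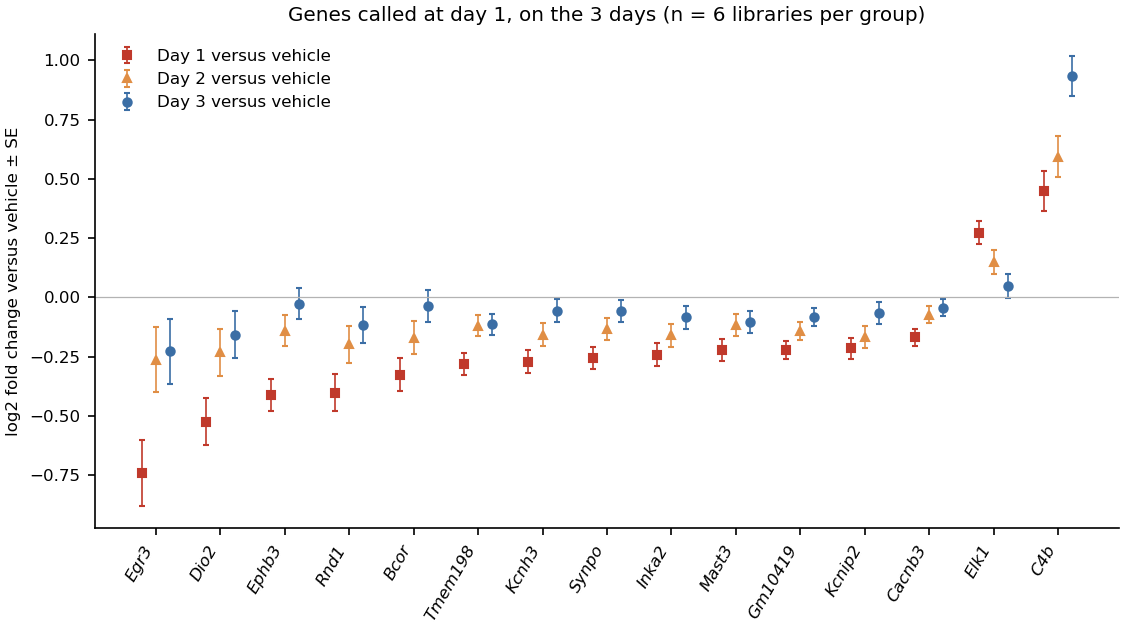
Log2 fold change against vehicle ± SE of the 15 genes called at day 1, on each of the 3 days (n = 6 libraries per group; the vehicle libraries are shared). For 14 genes the day 1 value is the farthest from 0; C4b goes on from 0.45 to 0.93.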

How the data were processed

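The deposited table holds raw read counts per gene for 24 libraries, made by the authors; the submitters' processing notes name fastp 0.23.1, STAR 2.7.9a, DESeq2 1.32.0 and the mm39 build without their roles. In the sources used here the counter, annotation release and use of strand are not given, so overlapping genes on opposite strands cannot be told apart. Of 55417 entries, 52083 were matched to a symbol by Ensembl identifier.

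Groups follow the treatment label. The labels do not say in so many words that each library is a separate animal; otherwise p-values measure only the spread between libraries. Library pairs within the 2 groups had a chi-square per degree of freedom of 4.23 to 12.3 (30 pairs), so none agreed within sampling noise. Total counts of the 12 libraries were 17.8 to 23.7 M reads, which limits the precision of low genes.

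Counts were tested with edgeR 4.0.16 (R 4.3.3): trimmed mean of M values factors, filterByExpr (minimum count 10, total 15), a robust quasi-likelihood fit with group and sex over all 24 libraries, two-sided, with Benjamini-Hochberg adjustment over 16767 genes; a call is an adjusted p under 0.05. The step was tested on simulated data. Alternatives used other factors and filters, DESeq2 1.42.0, limma 3.58.1 (voom), other models and subsets, and each library left out; a fit without robust estimation and one on library totals were added after the data were seen. Named genes were all called genes, the 10 rises and 10 falls next in p (with a symbol, and mean log2 CPM 1 or above), up to 3 leading members of each of 49 lists (808 of 857 distinct symbols measured) with 4 lists whole, and a set of marker genes; other list members at an unadjusted p under 0.05 were named after their values were seen. C4a, Ddx23 and Uxt were also added after values were seen. The comparison and lists were chosen with earlier results of these data known. Figures used matplotlib 3.10.9.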

Additional observations from a re-analysis of the deposited data

Results flagged for a closer look

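In 6 of 106 sets of 6 libraries (1 gene in 1 group), the highest or lowest library stood apart from the other 5 by Dixon's 95% criterion, which chance alone meets in about 1 group in 20. In vehicle, Ttr reached 1158 CPM in Vehicle 5 against 18.9 CPM in the next library, Gm10419 reached 113 CPM in Vehicle 6 against 107 CPM, and Calb1 was lowest in Vehicle 1 at 129 CPM against 152 CPM. Vehicle 6 is also the library without which Gm10419 lost its call, as did every other of the 15 called genes except Tmem198 and Ephb3. At day 1, Day1 2, a library rich in Ttr, held the lowest Ccn2 value (23.1 CPM, the next being 30.3) and the highest Cbfa2t3 value (51.3 CPM, the next being 45.9). Gfap was highest in Day1 1 at 256 CPM, the next library holding 219 CPM.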

How the results depend on the processing

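The count of 15 genes (2 higher, 13 lower) moved with the method. It was 9 with upper-quartile factors (7 lower), 7 with library totals (5 lower), 159 without the filter on low counts (39 higher, 120 lower), 75 with DESeq2 (9 higher, 66 lower) and 36 with the number series as a factor (6 higher, 30 lower). Voom called 1 gene higher and 10 lower. Against a 1.2-fold threshold 0 genes passed (0 higher, 0 lower), females alone gave 1 (0 higher, 1 lower) and males alone 0. Leaving out 1 library gave 2 to 23 genes in all, 0 to 4 higher and 2 to 21 lower. The count fell to 9 without Vehicle 2, 5 without Vehicle 4, 2 without Vehicle 6, 4 without Day1 1 or Day1 4, and 9 without Day1 3, Day1 6, Day3 4 or Day3 5; it was 23 without Vehicle 1 or Day2 3. Day 2 versus day 1 went from 2 genes to 58 without the filter, 1 with a filter of 1 CPM or without the Ttr-rich libraries, and 0 against the 1.2-fold threshold, with only the groups compared, with the number series, or in either sex; leaving out 1 library gave 0 to 2. Day 3 versus day 1 went from 114 to 295 without the filter, 31 against 1.2-fold, 56 without the Ttr-rich libraries, 10 in females and 16 in males, and leaving out 1 library gave 55 to 133. The causes of these shifts were not tested, beyond the fewer libraries in the subsets. The group by sex term gave 0 genes under the 3 alternatives run.

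Of the medians of 49 lists under these settings, 15 moved beyond the spread between libraries and 1896 did not. The bar was the SD between libraries, within groups, of the list's mean log2 CPM. Leaving out 1 library could seldom pass it, least of all a day 2 or day 3 library outside the comparison. The 1896 therefore say little about stability. None of the 15 called genes changed sign, with the limits given above. Named genes that were not called could, for example Fos (-0.71 to 0.19 over the 16 alternatives) and Ier2 (-0.70 to 0.67). No paired analysis was possible because the labels carry no replicate numbers that pair libraries; those used here follow accession order. The number series could be fitted as a factor, with the 36 genes given above. Depth limits genes such as Ccl3, with 6 reads over the vehicle libraries.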

Other observations

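Markers of inhibitory and deep-layer neurons had small values at day 1. Over all genes, 4.19% were lower and 2.92% higher at an unadjusted p under 0.05. Of 20 interneuron markers 0 were called by edgeR, 3 were lower and 1 higher at an unadjusted p under 0.05, and the median was -0.05. Gad1, which makes GABA, stood at -0.12 ± 0.04, the vesicular GABA transporter gene Slc32a1 at -0.15 ± 0.05, the peptide gene Sst at -0.15 ± 0.05 and the nitric oxide synthase gene Nos1 at 0.31 ± 0.11. Of 14 measured deep cortical markers 0 were called, 4 were higher and 1 lower, with Ccn2 at 0.31 ± 0.08, Tle4 at 0.18 ± 0.06, Foxp2 at 0.24 ± 0.10, Nxph4 at 0.22 ± 0.10 and Ntng2 at -0.16 ± 0.07. Of 12 general excitatory neuron markers 4 were lower and 0 higher, and 2 were above 0 (median -0.07). Respiratory chain genes encoded in the nucleus had 7 of 28 above 0, a median of -0.05 and 0 at an unadjusted p under 0.05.

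Cacnb3 and Rnd1, both lower at day 1, are neighbours in the mouse genome with Ddx23 between them (RefSeq gene order). Ddx23, looked up after this was seen, was at 0.05 ± 0.04. Elk1 overlaps Uxt on the same strand in GENCODE M21, where Uxt had 1.90 CPM in vehicle and stood at 0.20 ± 0.17.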
